A study of Homo sapiens with 24 samples.

Results

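NRAS and HRAS encode RAS GTPases, BRAF and ARAF encode RAF kinases, MAP2K1 and MAP2K2 encode the MEK kinases, and MAPK3 encodes the ERK1 kinase. These 7 genes were chosen by name as steps of 1 kinase cascade, and all 7 were among the 54583 genes in the count table and among the 12058 genes tested. RAS proteins are switched on at the plasma membrane below growth factor receptors and recruit RAF kinases. RAF phosphorylates MEK, MEK phosphorylates ERK, and ERK in turn activates many targets, among them the MNK kinases that phosphorylate the cap-binding protein eIF4E. In carcinomas of the pancreatic duct this cascade is commonly driven by mutant RAS.

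PANC-1, an established human cell line of pancreatic duct carcinoma origin, received the solvent DMSO, CID661578 at 40 µM or cercosporamide at 5 µM for 6 h. The study compared them as ligands of MNK2 and asked which mRNAs change in translation, and cercosporamide is known as an inhibitor of MNK kinases. Each treatment had 4 biological replicates, and each of the 12 plates gave 1 library of its cytosolic RNA (total RNA) and 1 of the RNA on its heavy polysomes (polysome-associated RNA), 24 in all. The sample descriptions name RPMI as the medium and the methods of the study name DMEM, and all plates share 1 cell line, so the replicates measure the spread between cultures of that line.

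The polysome library of cercosporamide replicate 4 held 1592459 reads on genes, and the others held between 9268041 and 12184749. KRT8, KRT18, KRT19 and VIM were abundant in all libraries, whereas CFTR, also a duct marker, had a count of 0 in every library. PTPRC, INS, PRSS1 and ALB, which mark leukocytes, beta cells, acinar cells and hepatocytes, had a count of 0 in every library as well. The remaining genes listed for other cell types had few counts. GCG and CPA1 reached at most 3 in a library, PECAM1 at most 5 and CELA3A at most 14.

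The RAF, MEK and ERK members differ in the sequence around the start codon, which the scanning ribosome reads, and these stretches are shown because polysome association is the readout here. Each line gives up to 12 bases before and 4 bases after the start codon, 5′ to 3′ on the coding strand, with the start codon in capitals, from the canonical transcripts of GENCODE release 44 on GRCh38.
BRAF: ctcggttataagATGgcgg
ARAF: atctaaggctccATGgagc
MAP2K1: cccgggtccaaaATGccca
MAP2K2: cgcggagccccgATGctgg
MAPK3: gaggagtggagATGgcgg

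On GRCh38, NRAS lies at chr1:114704469-114716771 and HRAS at chr11:532242-537321, both on the minus strand. BRAF lies at chr7:140719327-140924929 on the minus strand and ARAF at chrX:47561205-47571908 on the plus strand. MAP2K1 lies at chr15:66386837-66491656 on the plus strand, MAP2K2 at chr19:4090321-4124122 on the minus strand and MAPK3 at chr16:30114105-30123506 on the minus strand. The members differ in GC content over the whole transcript. NRAS had a GC content of 37.4% and BRAF of 41.1%. MAP2K1 was intermediate at 51.2%, and ARAF, MAPK3, HRAS and MAP2K2 lay between 59% and 65.4%. The order differs in the 5′ UTR, where BRAF was at 81.4%, near HRAS (82.7%) and MAP2K2 (83%). NRAS was at 58.8% there, ARAF at 63.2% and MAP2K1 at 74.3%, and the 5′ UTR of MAPK3 has only 11 bases. NRAS and BRAF also have long 3′ UTRs of 3625 and 3932 bases, against 277 bases in MAP2K2 and 286 bases in HRAS. Within pairs the coding sequences are related but distinct, with 73% identical bases for NRAS and HRAS, 66.9% for BRAF and ARAF and 75% for MAP2K1 and MAP2K2. The longest identical run was 38 bases, in the MEK pair. In GENCODE, exons of MAP2K1 overlap those of SNAPC5 and a noncoding gene over 20.5% of their bases. The counts of MAP2K1 are uncertain there because counting ignored the strand and dropped reads that overlap several genes. Such overlap covered 5.97% of exon bases in BRAF, 1.61% in ARAF and 0.864% in HRAS, and none in NRAS, MAP2K2 and MAPK3. Counting used RefSeq genes, and overlap between their exons was not measured. The MAP2K1 pseudogene MAP2K1P1 held between 0 and 6 counts per library.

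Per kilobase of canonical transcript, the members covered a wide range of levels in total RNA of DMSO cells. CPM are edgeR's counts scaled to the TMM-normalized library size, and in such bulk RNA fewer cells that express a gene and less RNA per cell cannot be told apart. HRAS was at 40.3 ± 9.07 CPM per kilobase and ARAF at 29.4 ± 3.82 (SD, n = 4), and these overlapped between replicates. MAP2K2 followed at 11.6 ± 8.39 and NRAS at 9.65 ± 1.77, which overlapped with each other and not with ARAF. MAP2K1 was at 4.47 ± 1.09 and MAPK3 at 3.37 ± 0.362, again overlapping, and BRAF was lowest at 0.757 ± 0.0773 CPM per kilobase, below every other member in all 4 replicates. BRAF and MAPK3 rested on few reads, with medians over the 24 libraries of 45.0 and 61.5 counts, and on 9 and 6 counts in the shallow library.

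**Figure D1:**
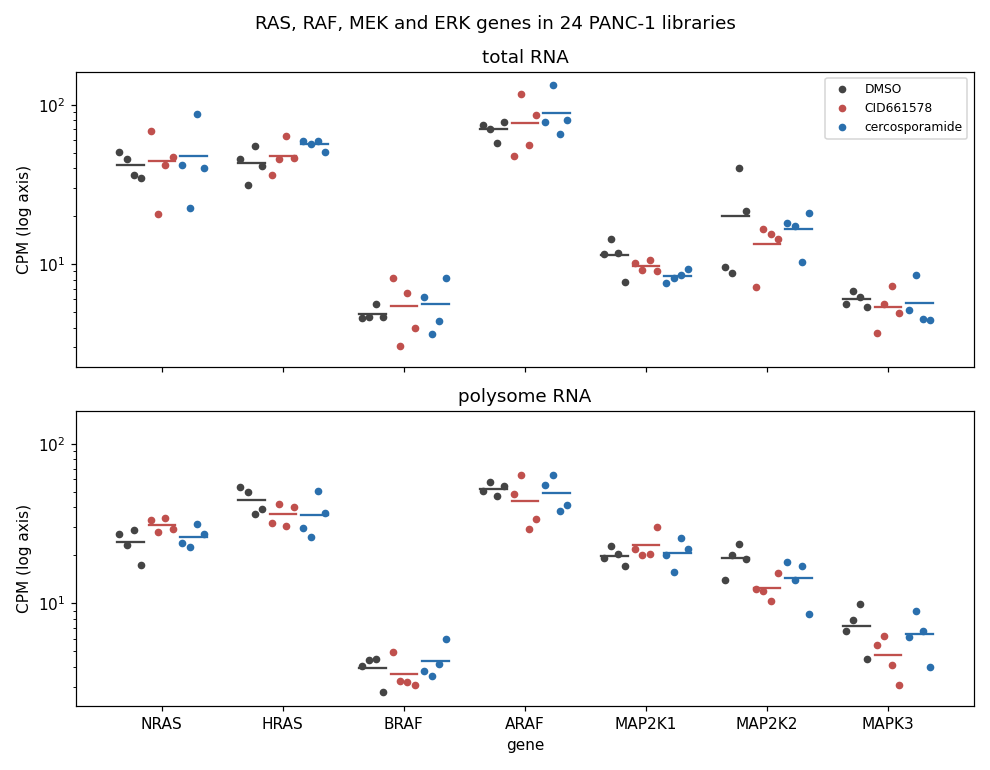
Level of each gene in total RNA (top) and polysome-associated RNA (bottom) in CPM on a log axis, not divided by length. Points are replicates in order 1 to 4 within each treatment and lines are means of 4. Each compound overlaps DMSO for every gene in both fractions.

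Among the RAS genes, NRAS was lower in polysome-associated than in total RNA of DMSO cells. NRAS was at 50.5, 45.7, 36.0 and 34.7 CPM in total RNA and at 27.3, 23.3, 28.6 and 17.4 CPM in polysome-associated RNA of DMSO replicates 1 to 4. Every polysome value was below every total value. The fitted difference of polysome over total RNA was -0.80 on the log2 scale (SE 0.219, adjusted p = 0.005, edgeR). HRAS did not show it, at 0.06 (SE 0.211, adjusted p = 0.843).

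Among the RAF genes, ARAF was also lower in polysome-associated than in total RNA. In DMSO cells ARAF was at 74.6, 70.2, 57.2 and 77.9 CPM in total RNA and at 50.9, 57.3, 46.7 and 54.4 CPM in polysome-associated RNA. The polysome value was lower in each of the 4 plates, and the fractions overlapped narrowly between plates. The fitted difference was -0.41 (SE 0.178, adjusted p = 0.0641), and it missed an adjusted p of 0.05. BRAF was at -0.33 (SE 0.295, adjusted p = 0.377).

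Among the MEK genes, MAP2K1 was the member with the strongest polysome association. In DMSO cells MAP2K1 was at 11.6, 14.4, 11.8 and 7.68 CPM in total RNA and at 19.2, 22.7, 20.2 and 17.2 CPM in polysome-associated RNA, without overlap. The fitted difference was 0.83 (SE 0.216, adjusted p = 0.00335). It was 1.22 with CID661578 (SE 0.219, adjusted p = 8.73e-05) and 1.30 with cercosporamide (SE 0.228, adjusted p = 3.05e-05). Among all genes tested, MAP2K1 lay at percentile 85.8 in DMSO cells, 94.7 with CID661578 and 87.3 with cercosporamide. MAP2K1 was higher in polysome-associated RNA in 12 of 12 plates, between 0.65 and 1.74 on the log2 scale. MAP2K2 was higher in 6 plates and lower in 6, between -1.27 and 1.18, and MAPK3 was higher in 8 and lower in 4.

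In DMSO cells 3 of the 7 members passed an adjusted p of 0.15 and a 1.2-fold difference between the fractions, 1 higher and 2 lower in polysome-associated RNA. Of all genes tested, 26.4% passed as higher and 29.6% as lower. With CID661578, NRAS (-0.40, adjusted p = 0.144), HRAS (-0.39, adjusted p = 0.140), ARAF (-0.78, adjusted p = 0.00118) and MAP2K1 passed, against 26.6% higher and 27.2% lower of all genes. With cercosporamide the same 4 genes passed, with NRAS at -0.73, HRAS at -0.71 and ARAF at -0.83, against 37.8% higher and 31.6% lower. Passing was common among all genes, so these counts describe single members and are no result about the cascade. The differences between polysome-associated and total RNA also depend on how the fractions are scaled. TMM within each fraction moved the median of all genes in DMSO cells from -0.01 to 0.26, and ARAF then lay at -0.14 (adjusted p = 0.547).

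**Figure D2:**
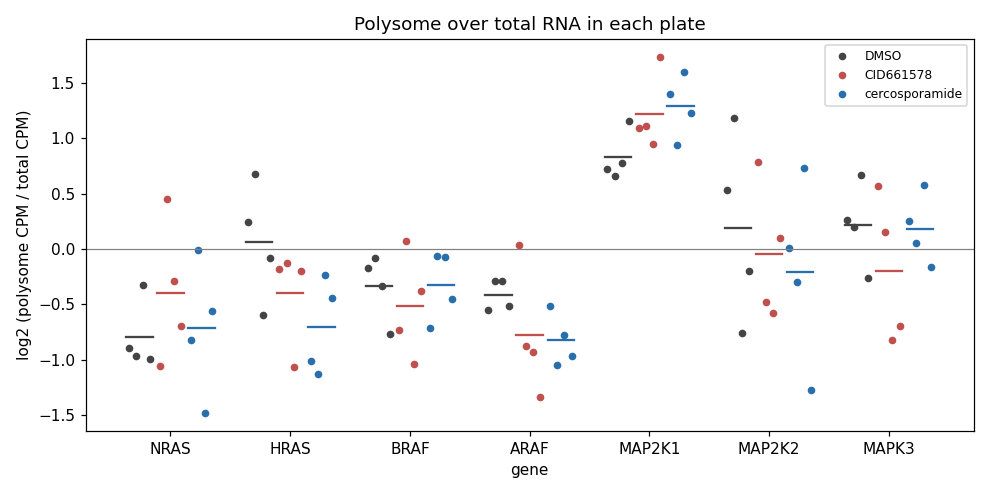
Log2 ratio of polysome to total CPM in each of the 12 plates, with a line at the mean of 4 for each treatment and a grey line at 0. MAP2K1 lies above 0 in 12 of 12 plates, and NRAS, BRAF and ARAF lie below 0 in 11 of 12 each.

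The ratio of 2 paralogues in the same library does not depend on how libraries are scaled. It can still carry a trend with GC content, which was 51.2% for MAP2K1 and 65.4% for MAP2K2. No paralogue ratio was recomputed with such a trend removed. The polysome over total ratio of MAP2K1 exceeded that of MAP2K2 in 11 of 12 plates, by 1.13 ± 0.801 on the log2 scale (SD over 12 plates). A two-sided exact sign-flip test over plates gave p = 0.00244, or 0.0732 after Benjamini-Hochberg adjustment over 30 comparisons of paralogues. Without the plate of the shallow library the difference was 1.01 (exact p = 0.00488). This test was chosen after the values were seen and treats the 3 plates of a replicate as independent. The means of the 4 replicates lay between 0.628 and 1.82, all above 0, and sign flips over 4 replicates cannot pass 0.05. The same difference was -0.29 ± 0.888 for NRAS over HRAS (exact p = 0.274) and 0.29 ± 0.562 for BRAF over ARAF (exact p = 0.110).

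Changes with each compound were then tested as the change of polysome-associated RNA given total RNA, the translational efficiency (TE), and in each fraction alone. HRAS was the only member to pass a test, and only in TE with cercosporamide. HRAS was at 45.5, 31.3, 54.7 and 41.1 CPM in total RNA and at 53.8, 50.0, 36.3 and 38.9 CPM in polysome-associated RNA of DMSO cells. With cercosporamide it was at 59.5, 56.5, 59.4 and 50.3 CPM in total RNA and at 29.4, 25.9, 50.6 and 37.1 CPM in polysome-associated RNA. Replicates 1 and 2 moved most, and in replicate 3 the polysome over total ratio was higher than in its DMSO plate, so the groups overlap.

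TE of HRAS fell by 0.77 on the log2 scale with cercosporamide (SE 0.304, adjusted p = 0.0847, edgeR), lower in 3 of 4 replicates. It was 1 of 7 members called, against 12.6% of all genes called lower and 15.8% called higher. That count lies near these shares, so the call describes HRAS alone and is no result about the cascade. Neither fraction of HRAS passed alone, with 0.36 in total RNA (SE 0.209, adjusted p = 0.533, higher in 4 of 4 replicates) and -0.37 in polysome-associated RNA (SE 0.228, adjusted p = 0.263). The gene no longer passed when replicate 1 (-0.60, adjusted p = 0.299) or replicate 2 (-0.42, adjusted p = 0.520) was left out, or after the GC trend of each library was removed (-0.39, adjusted p = 0.345). With that GC trend removed, NRAS (-0.67, adjusted p = 0.117) and MAP2K1 (0.68, adjusted p = 0.139) passed instead, and without replicate 3 MAP2K2 passed as lower (-1.02, adjusted p = 0.112). With CID661578, TE of HRAS was -0.45 (SE 0.298, adjusted p = 0.657), lower in 4 of 4 replicates, and the 2 compounds differed by 0.32 (95% interval -0.31 to 0.94). The compounds were used at different doses.

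With CID661578, 0 of 7 members passed in TE by edgeR, against 0.00829% of all genes called higher and 0.199% called lower. There were 1069 genes with an unadjusted p under 0.05. The edgeR fit called 1 gene higher and 24 lower. The study called TE changes with another method, anota2seq, and reported more mRNAs than these as changed by both compounds. These shares are therefore those of the edgeR fit, and at such shares 0 of 7 tells little about the members. The TE values of the members lay between -0.45 for HRAS and 0.39 for NRAS, with a median of -0.22 against 0.03 over all genes. With cercosporamide they lay between -0.77 for HRAS and 0.48 for MAP2K1 (SE 0.312, adjusted p = 0.322), with a median of -0.06 against -0.00 over all genes. MAP2K1 was higher in TE in 4 of 4 replicates with either compound, and the groups overlap. Between the compounds 0 of 7 passed in TE, against 7.93% of all genes called higher and 7.57% called lower with CID661578, 0 of 7 in total RNA, against 0.34% and 0.182%, and 0 of 7 in polysome-associated RNA, against 11.3% and 10.8%.

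**Figure D3:**
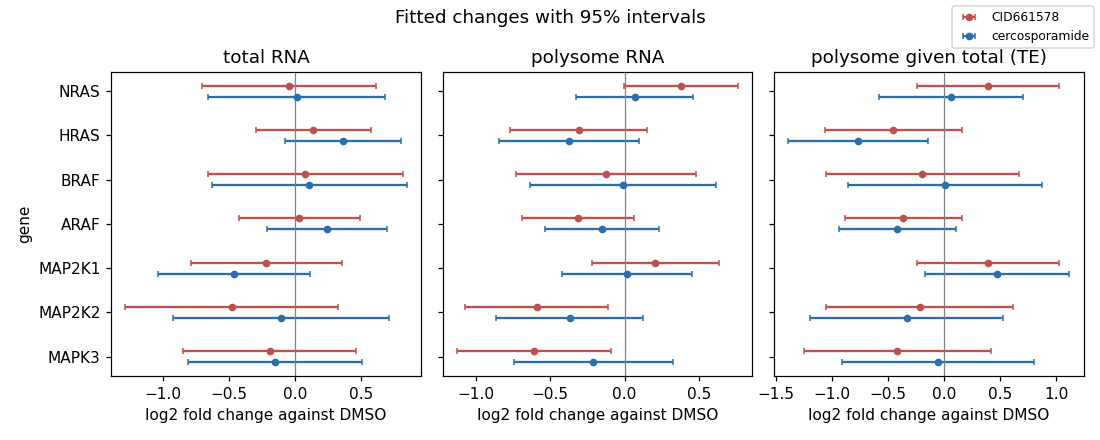
Fitted log2 fold changes against DMSO with 95% intervals in total RNA, polysome-associated RNA and TE for CID661578 and cercosporamide. The interval of HRAS in TE with cercosporamide, -1.40 to -0.14, does not include 0, and in polysome-associated RNA with CID661578 those of MAP2K2 and MAPK3 do not either.

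In total RNA 0 of 7 members passed with CID661578, against 0.307% higher and 0.166% lower of all genes, and 0 of 7 with cercosporamide, against 0.0498% and 0.0332%. In polysome-associated RNA 0 of 7 passed with CID661578, against 6.34% higher and 3.93% lower, and 0 of 7 with cercosporamide, against 17.1% and 16%. MAP2K2 came closest with CID661578. It was at 14.0, 20.03, 23.5 and 18.9 CPM in DMSO polysomes and at 12.4, 11.9, 10.4 and 15.5 CPM with CID661578, lower in 4 of 4 replicates, at -0.59 (SE 0.232, adjusted p = 0.164). It passed with DESeq2 (adjusted p = 0.114), with DMSO and CID661578 alone (adjusted p = 0.0900) and without the shallow plate (adjusted p = 0.103). MAPK3 was at -0.61 (SE 0.250, adjusted p = 0.183), also lower in 4 of 4 replicates, and NRAS at 0.38 (SE 0.184, adjusted p = 0.262), higher in 4 of 4.

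For 0 of 7 members did the 4 values with a compound lie entirely above or below the 4 of DMSO. Of all genes tested, the values with CID661578 lay entirely above in 0.713% and below in 1.29% in total RNA, in 3.83% and 2.92% in polysome-associated RNA and in 2.74% and 1.68% for the polysome over total ratio. With cercosporamide these shares were 2.36% and 2.07%, 8.43% and 5.73%, and 10.9% and 8%.

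Within the MEK pair, the ratio in polysome-associated RNA did not overlap between CID661578 and DMSO cells, but the difference did not pass after adjustment. The log2 ratio of MAP2K1 to MAP2K2 counts was 0.45, 0.18, -0.22 and -0.14 in DMSO polysomes and 0.82, 0.74, 0.97 and 0.96 with CID661578, without overlap. The difference was 0.80 (SE 0.164), and the two-sided exact permutation p of 0.0286 is the smallest that 4 against 4 allows. After adjustment over the 27 planned comparisons of paralogues it was 0.701. With cercosporamide the difference was 0.48 (SE 0.314, exact p = 0.200), with 2 replicates higher and 2 lower. In total RNA the ratio ranged from -1.75 to 0.70 in DMSO cells, since MAP2K2 was at 9.65, 8.85, 39.9 and 21.6 CPM there.

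**Figure D4:**
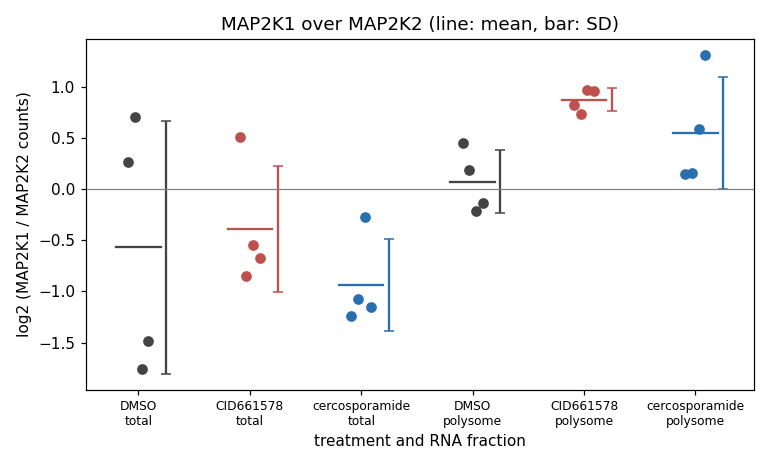
Log2 ratio of MAP2K1 to MAP2K2 counts by treatment in total and polysome-associated RNA. Points are replicates, lines are means of 4 and bars are SD. In polysome-associated RNA the CID661578 values, 0.74 to 0.97, lie above the DMSO values, -0.22 to 0.45.

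The RAS pair did not pass the test in polysome-associated RNA. The NRAS over HRAS ratio differed from DMSO by 0.69 with CID661578 (SE 0.262, exact p = 0.0857) and by 0.48 with cercosporamide (SE 0.215, exact p = 0.0857). For BRAF over ARAF the differences were 0.19 (SE 0.317) and 0.26 (SE 0.382), within the spread between replicates.

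Other genes of the pathway were followed in 8 lists, of which 84 of 97 genes were tested. In TE with CID661578, 0 of 84 passed, where 0.00829% of all genes tested passed as higher and 0.199% as lower. With cercosporamide 12 of 84 passed as higher and 10 as lower, where 15.8% and 12.6% of all genes did. These shares lay near those over all genes, so the counts by list and the genes named from them are a description and no result about the pathway. Of 9 receptors and adaptors 3 were higher and 1 lower, including MET, the hepatocyte growth factor receptor (0.68, adjusted p = 0.0448), and PTPN11, the phosphatase SHP2 (0.74, adjusted p = 0.0891). Of 10 exchange factors and GTPase activators 1 passed, RAPGEF1, an exchange factor for RAP1 (-1.27, adjusted p = 0.0848).

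Of 20 scaffolds, chaperones and binders 5 were higher and 3 lower, including PPP1CB, a catalytic subunit of protein phosphatase 1 (1.01, adjusted p = 0.00887), and PEA15, which holds ERK in the cytoplasm (-1.34, adjusted p = 0.00252). Of 9 genes of membrane targeting 1 was higher and 2 lower. PGGT1B, a subunit of a prenyl transferase, rose by 1.07 (adjusted p = 0.0419), and PDE6D, which carries prenylated RAS proteins, was at -1.35 (adjusted p = 0.0016). Of 10 other RAS family genes 2 were higher, RIT1 (0.89, adjusted p = 0.0563) and RAP2B (0.83, adjusted p = 0.1003).

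Of 6 other RAF, MEK and ERK paralogues 0 were higher and 1 lower. Of 9 p38 and JNK pathway kinases 1 was lower, MAP2K3, which activates p38 (-0.93, adjusted p = 0.0478). Of 11 kinases and factors that ERK phosphorylates, ETS1, a transcription factor, was higher (0.92, adjusted p = 0.0277) and MKNK2, which encodes MNK2, was lower (-1.14, adjusted p = 0.113).

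Genes were compared with each member by Pearson's r of log2 CPM over the 24 libraries, among 7447 genes (7448 for BRAF and MAPK3). The genes most like each member are a description, since both libraries of a plate share their lysate. The 24 libraries pool total and polysome-associated RNA, so r also takes in the difference between the fractions. Correlation within a fraction was not tested. MAP2K1 was most like ARHGEF12 (r = 0.953) and AFDN (r = 0.942). ARAF was most like SHISA5 (r = 0.924) and CHID1 (r = 0.923), and NRAS most like C14orf119 (r = 0.894) and ARPC5 (r = 0.887). The values for the other members were lower, at 0.785 for MAPK3 with MIEF2, 0.783 for MAP2K2 with SGF29, 0.780 for HRAS with RPS2 and 0.711 for BRAF with RNF14. Among the members themselves, r over both fractions was -0.764 for MAP2K1 and ARAF, 0.569 for NRAS and BRAF and -0.084 for MAP2K1 and MAP2K2. In the fits of each treatment, MAP2K1 was higher and ARAF lower in polysome-associated than in total RNA.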

How the data were processed

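The members and gene lists were chosen with earlier results of these data known. Per the labels and methods of the study, the authors sequenced total cytosolic RNA and polysome-associated RNA (mRNAs on heavy polysomes) as Smart-seq2 libraries, removed rRNA reads, mapped what was left with HISAT2 (hg38) and ran featureCounts at its defaults over RefSeq genes. The submitters' processing notes also name bcl2fastq 2.20.0.422 and FastQC 0.11.8. The deposited values are raw counts, by symbol. Strand was ignored, and a read with several alignments was counted at each.

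Any gene with a 0 among the 24 libraries was left out, as in the study, and TMM and the quasi-likelihood test of edgeR 4.0.16 (R 4.3.3) were applied to all 12058 others. The TE model held plate, polysome in each replicate, and polysome by compound (residual degrees of freedom 6, prior 18.25, common biological coefficient of variation 0.223). Each fraction was also fitted with replicate terms. Calls used a Benjamini-Hochberg adjusted p below 0.15, with a change over 1.2-fold for TE and for polysome against total RNA. The methods of the study name the replicate as batch. Deviations from group means were correlated over genes between same-numbered libraries of a compound and DMSO. Of these, 13 of 16 had r above 0.1 (range -0.0326 to 0.632). Differently numbered libraries were not correlated, so these values have no reference and cannot tell whether the replicate is a batch. No 2 libraries of a group agreed within sampling noise (lowest chi-square per degree of freedom 13.3). Paralogue ratios are log2 of counts plus 0.5, tested by exact two-sided permutation. Named genes were the members, at most 2 genes per list and compound with the lowest p among those called, and the 2 genes most like each member. Scripts were tested on simulated data. Alternatives included DESeq2 1.42.0, limits on low counts, scaling, GC, and leaving out each replicate. The depth of 1592459 to 12184749 reads limits members with low counts. Start codon sequences of the RAS genes are not reported here.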

Additional observations from a re-analysis of the deposited data

Results flagged for a closer look

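Over 63 groups of 4 values of the members, 5 held a sample far from the others by Dixon's test at a level of 0.05, at which 3.15 groups would be passed by chance. BRAF in DMSO total RNA was at 5.64 CPM in replicate 3, against 4.57 to 4.68 in the others. BRAF in CID661578 polysomes was at 4.91 CPM in replicate 1, against 3.06 to 3.23. MAPK3 in cercosporamide total RNA was at 8.57 CPM in replicate 2, against 4.46 to 5.15. The log2 polysome over total ratio of NRAS in DMSO replicate 3 was -0.33, against -0.997 to -0.890, and that of HRAS in CID661578 replicate 3 was -1.07, against -0.20 to -0.13. Of 21 tests of a member between the compounds, 0 passed by edgeR.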

How the results depend on the processing

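Of 826 alternative values for 56 results of single members, 68 turned the sign, and none of these was among the 4 called results. After the turn 2 of them passed, both with the GC trend removed: NRAS with cercosporamide in TE (-0.67, adjusted p = 0.117) and in polysome-associated RNA (-0.45, adjusted p = 0.1005). The largest main value that turned was 0.45 in size. The number of members called in TE with cercosporamide was 1, and it became 0 at an adjusted p of 0.05, 0 with neither plate nor replicate block, 2 with the GC trend removed, and between 0 and 2 when single replicates were left out. With the GC trend removed, 1 member was called in TE between the compounds and 1 in polysome-associated RNA with cercosporamide. The count in polysome-associated RNA with CID661578 became 1 with DESeq2 and 1 with DMSO and CID661578 only, and it and the count with cercosporamide lay between 0 and 1 when single replicates were left out. With sign flips within replicates as the replicate block, the polysome ratio of MAP2K1 to MAP2K2 with CID661578 stayed at 0.80, with the smallest exact p that 4 sign flips allow, which is above 0.05. Without the replicate block no count of members called changed. Per length of all annotated exons, DMSO total RNA of ARAF (20.5 CPM per kilobase) exceeded that of HRAS (17.7). On that length MAP2K2 was at 2.58, below NRAS (9.65) without overlap between replicates, and it overlapped MAP2K1 (1.76). The cause of these changes was not tested.

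Without the replicate block, the sign turned for NRAS total RNA CID661578 (0.0786), BRAF polysome RNA cercosporamide (0.0279). With neither plate nor replicate block, the sign turned for NRAS TE cercosporamide (-0.087), BRAF TE cercosporamide (-0.12), MAP2K2 polysome over total (-0.0697). With DESeq2, the sign turned for NRAS TE cercosporamide (-0.00599), BRAF TE cercosporamide (-0.0651), BRAF polysome RNA cercosporamide (0.0077). With DESeq2 size factors in edgeR, the sign turned for NRAS TE cercosporamide (-0.0115), BRAF TE cercosporamide (-0.0641), BRAF polysome RNA cercosporamide (0.0134). With TMM without mitochondrial genes, the sign turned for BRAF TE cercosporamide (-0.0148). With filterByExpr, the sign turned for BRAF TE cercosporamide (-0.0275), BRAF polysome RNA cercosporamide (0.0645). With no filter, the sign turned for NRAS TE cercosporamide (-0.00594), BRAF TE cercosporamide (-0.0567), NRAS total RNA cercosporamide (-0.00389), BRAF polysome RNA cercosporamide (0.0659). With the GC trend removed and the replicate block kept, the sign turned for HRAS TE CID661578 (0.0482), MAP2K2 TE CID661578 (0.33), NRAS TE cercosporamide (-0.67), BRAF TE cercosporamide (-0.49), MAP2K2 TE cercosporamide (0.0827), MAPK3 TE cercosporamide (0.27), BRAF TE between compounds (0.0531), HRAS total RNA CID661578 (-0.0553), NRAS polysome RNA CID661578 (-0.00183), NRAS polysome RNA cercosporamide (-0.45), ARAF polysome RNA cercosporamide (0.12), MAPK3 polysome RNA cercosporamide (0.0313), HRAS polysome over total (-0.26), MAP2K2 polysome over total (-0.16), MAPK3 polysome over total (-0.0448). With DMSO and 1 compound only, the sign turned for BRAF TE cercosporamide (-0.00241), NRAS total RNA CID661578 (0.00396), BRAF polysome RNA cercosporamide (0.00528).

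Leaving out single replicates gave these log2 ranges: ARAF TE between compounds -0.11 to 0.21, MAP2K2 TE between compounds -0.20 to 0.61, BRAF total RNA CID661578 -0.19 to 0.32, BRAF polysome RNA cercosporamide -0.21 to 0.13, MAP2K1 polysome RNA cercosporamide -0.10 to 0.22, HRAS polysome over total -0.14 to 0.36, MAP2K2 TE CID661578 -0.41 to 0.25, NRAS TE cercosporamide -0.24 to 0.46, MAP2K2 TE cercosporamide -1.02 to 0.0413, NRAS total RNA CID661578 -0.24 to 0.39. Further ranges were ARAF total RNA CID661578 -0.17 to 0.25, MAP2K2 polysome over total -0.15 to 0.58, BRAF TE cercosporamide -0.13 to 0.20, BRAF TE between compounds -0.31 to 0.0641, MAP2K1 TE between compounds -0.25 to 0.11, MAPK3 TE between compounds -0.59 to 0.01005, NRAS total RNA cercosporamide -0.42 to 0.44, MAP2K2 total RNA cercosporamide -0.47 to 0.54, BRAF total RNA cercosporamide -0.22 to 0.29, NRAS polysome RNA cercosporamide -0.0571 to 0.14. Further ranges were total RNA NRAS over HRAS CID661578 -0.48 to 0.34, total RNA NRAS over HRAS cercosporamide -0.87 to 0.14, total RNA BRAF over ARAF CID661578 -0.48 to 0.46, total RNA BRAF over ARAF cercosporamide -0.48 to 0.19, polysome RNA BRAF over ARAF CID661578 -0.0241 to 0.45, polysome RNA BRAF over ARAF cercosporamide -0.17 to 0.52, TE BRAF over ARAF CID661578 -0.16 to 0.62, total RNA MAP2K1 over MAP2K2 CID661578 -0.16 to 0.76, total RNA MAP2K1 over MAP2K2 cercosporamide -0.98 to 0.10, polysome RNA MAP2K1 over MAP2K2 CID661578 0.67 to 0.95. The shallow library and the low counts of BRAF and MAPK3 limit what could be detected.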
